A study of Mus musculus with 8 samples.

Results

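The genes described here encode 10 enzymes and enzyme partners that make or break down lipid mediators. They were chosen by symbol, with earlier results of these data known. All 10 were found among the 11996 genes of the deposited table: Ptgs1, Ptgs2 and Ptges of the prostanoid branch, Alox5, Alox5ap, Alox15, Ltc4s and Lta4h of the lipoxygenase and leukotriene branch, Sphk1, and Mgll. The cells were macrophages that thioglycolate, an irritant, had drawn into the peritoneum of C57BL/6 mice, wild type or lacking Ptpn1 (Ptpn1-/-), which encodes the tyrosine phosphatase PTP1B. After 24 h of adherence to plastic they were mock treated or given IL-10, an anti-inflammatory cytokine, at 100 ng/ml for 4 h. The labels name 2 samples for each of the 4 groups (wild type mock, wild type with IL-10, knockout mock, knockout with IL-10) and give neither the age of the mice nor whether cells of several mice were pooled.

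Macrophages release arachidonic acid from membrane phospholipids through phospholipases. Cyclooxygenases turn it into the precursor of prostaglandins and thromboxane, whereas lipoxygenase together with its activating protein turns it into leukotrienes, which recruit leukocytes and constrict smooth muscle. Sphingosine kinase makes the signalling lipid sphingosine 1-phosphate, and monoacylglycerol lipase splits monoacylglycerols, among them an endocannabinoid, into glycerol and fatty acid, which in some tissues supplies arachidonic acid for prostaglandins.

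The table gives 1 value per gene and group in a normalized signal whose unit is not stated, and each is printed here as the authors' value. No value per sample was analysed, sequencing depth is unknown, and without a spread between samples no p-value is given. Differences are log2 ratios of signal after adding 26.7 units (1 ppm of a column's total) to both values, which understates ratios of low genes. The limits of 1.5-fold and 2-fold are descriptive, and the share of the 11400 genes kept by a filter on low signal that passed the same limit is given as the background. Signals were not compared between genes, because no length correction is stated. All 10 members passed the filter, but 3 of them (Alox5, Alox15 and Ptgs2) had a mean signal under 134 units, and none lay above 20000 units, where the table's values are widely spaced.

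The macrophage markers chosen to check the labelled cell type, 10 names of which Emr1 and Adgre1 are the same gene, were listed as 9 genes with signal in every group, among them Csf1r, Cd68 and Mertk. Of 10 T and NK cell markers 3 were listed, and Cd3e was not among them. Il7r stood between 32926 and 44686.5 units, Cd5 between 11 and 31, and Lck at 11.5 and 105 units in wild-type cells (mock, then IL-10) and 10 and 128 in knockout cells. Of 6 dendritic cell markers 3 were listed, and Flt3 was not among them. Itgax, which macrophages also express, stood between 7473 and 11934.5 units, Zbtb46 between 81 and 101, and Cd209a at 6 and 61.5 units in wild-type cells and 14.5 and 72 in knockout cells. Lck, Il7r and Cd209a were higher with IL-10 in both genotypes, as Sphk1 and Ptgs1 were, whereas Cd5 and Itgax were lower in both. Zbtb46 was lower in wild-type cells (101 units under mock, 84 with IL-10) and nearly level in knockout cells (81 and 83). The part of such cells in the members' signals was not tested. The targeted gene Ptpn1 was listed at 4960.5 (wild-type cells) and 3836.5 units (knockout cells) under mock treatment, and at 6736 and 5391.5 with IL-10. This checks the genotype only weakly, since the deleted part of the gene is not given in the sources used here.

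**Figure D1:**
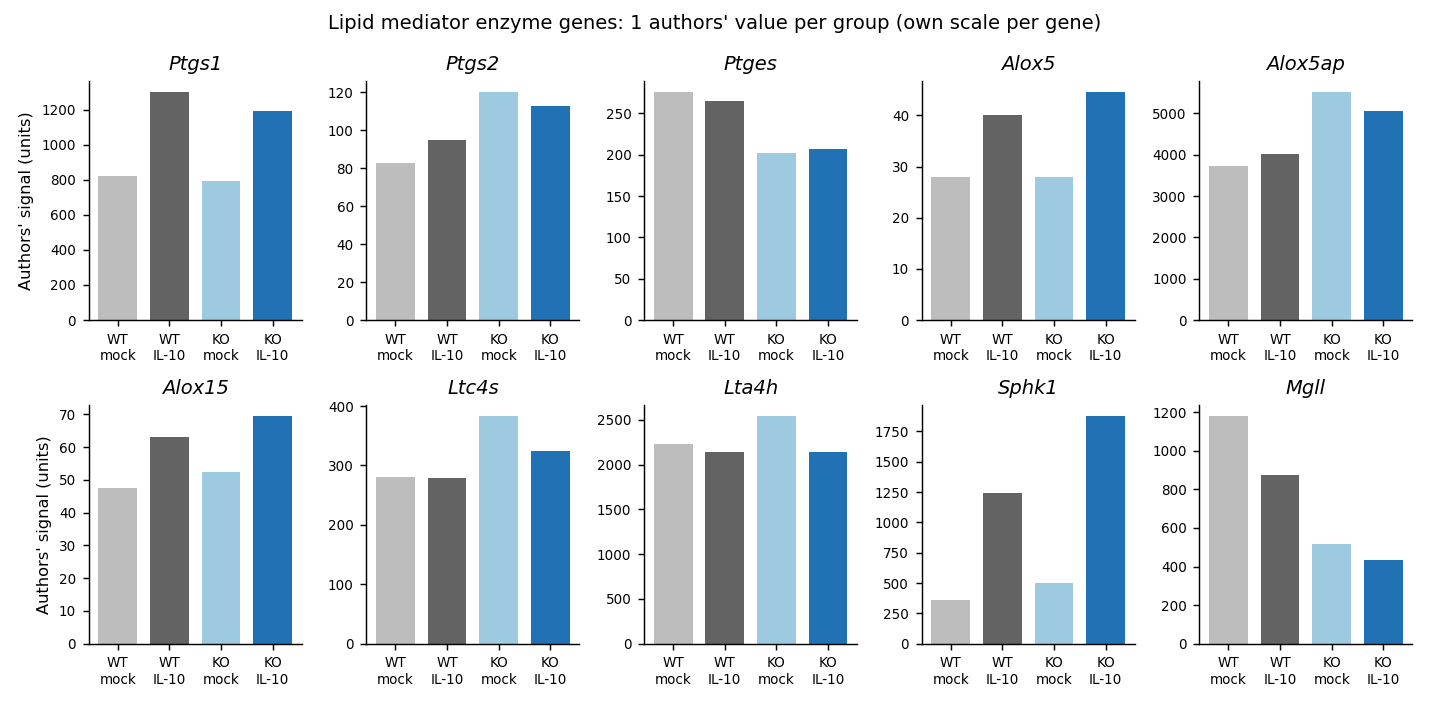
Authors' signal (units, linear axes from 0, 1 scale per gene) of the 10 members in the 4 groups, 1 bar per group and no error bars because each group has 1 value. Sphk1 was highest in both IL-10 groups (1241 and 1875.5 units), Mgll was lowest in both knockout groups (514.5 and 436 units), and Ptgs1 was higher with IL-10 in both genotypes.

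Sphk1, which encodes a sphingosine kinase, stood furthest from 0 of the 10 members in both IL-10 comparisons. Its signal was 360.5 units in mock-treated wild-type cells, 1241 in wild-type cells with IL-10, 497 in mock-treated knockout cells and 1875.5 in knockout cells with IL-10. Both IL-10 groups thus lay above both mock groups, and within each treatment the knockout was the higher. The log2 ratio of IL-10 to mock was 1.71 in wild-type cells, the 17th highest of 11400 genes (rank 17), and 1.86 in knockout cells (rank 25). As plain ratios of signal these were 3.44-fold and 3.77-fold. The knockout stood above wild type by 0.44 under mock and by 0.59 with IL-10, and the second of these lies just past the limit of 1.5-fold (0.585 on the log2 scale). It was 0.56 with a pseudocount of 4 ppm and 0.58 after centring on the median of all genes, both just inside the limit. The IL-10 log2 ratio of knockout cells exceeded that of wild-type cells by 0.15, under the limit. Of 6 monocyte markers 5 were listed, none of them at 0, and their summed signal had the same order of groups as Sphk1, with 586.5 and 1054 units in wild-type cells (mock, then IL-10) and 978.5 and 1654 in knockout cells. Single markers differed from that order: Ly6c2 stood at 15 and 13.5 units in wild-type cells and at 100 and 105.5 in knockout cells. Their part in the Sphk1 signal was not tested. The row (ENSMUSG00000061878, mm9 chromosome 11, 116392239 to 116397971, plus strand) spans 5733 bases, 99.7% of the gene's span in GENCODE M21, and overlaps no other row.

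Ptgs1 encodes the cyclooxygenase that many cells express without stimulation. It was listed at 822 units in mock-treated wild-type cells, 1297.5 in wild-type cells with IL-10, 793 in mock-treated knockout cells and 1190 in knockout cells with IL-10. The IL-10 groups were the higher ones in both genotypes, and the genotypes lay close together under each treatment. The log2 ratios of IL-10 to mock were 0.64 in wild-type cells, past 1.5-fold, and 0.57 in knockout cells, just inside that limit, so the count of members below differs between genotypes for Ptgs1 only by a narrow margin. Knockout against wild type gave -0.05 under mock and -0.12 with IL-10. The row (ENSMUSG00000047250, mm9 chromosome 2, 36097995 to 36100725, plus strand) spans 2731 bases, 12.5% of the gene's span in GENCODE M21. Whether each value counts reads over the listed span or over the whole gene is not given in the sources used here.

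Mgll, the monoacylglycerol lipase gene, was the member with the largest difference between genotypes. Its signal was 1179 units in mock-treated wild-type cells, 875 in wild-type cells with IL-10, 514.5 in mock-treated knockout cells and 436 in knockout cells with IL-10. Both knockout values lay below both wild-type values. Knockout against wild type gave a log2 ratio of -1.16 under mock, the 7th lowest of 11400 genes (rank 7), and -0.96 with IL-10 (rank 13), or signals 2.29 and 2.01 times lower. With IL-10 it stood lower than under mock in both genotypes, at -0.42 in wild-type cells (rank 197 from the lowest) and -0.23 in knockout cells (rank 1076), neither past 1.5-fold. The row (ENSMUSG00000033174, mm9 chromosome 6, 88674406 to 88778354, plus strand) covers 103949 bases, 100% of the gene's span in GENCODE M21.

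Markers of other peritoneal cells moved with genotype alongside Mgll. Of 11 mesothelial cell and fibroblast markers, all were listed and 10 kept. Their summed signal was 33895 and 32488.5 units in the wild-type mock and IL-10 groups and 20446.5 and 20344.5 in knockout cells groups. All 10 kept markers were below 0 in the mock comparison of genotypes, with a median log2 ratio of -0.63, and 9 of 10 were below 0 with IL-10, with a median of -0.59. None of these markers was at 0 in any group. The macrophage markers had medians of -0.14 and -0.05 in the genotype comparisons, but Lyz2, which encodes lysozyme, stood at -1.41 under mock and -1.0 with IL-10, in the range where the table's values are widely spaced. Of 8 resident peritoneal macrophage markers 7 were listed and kept, with median genotype ratios of -0.53 (mock) and -0.33 (IL-10), and summed signals of 2766 and 3081 units in wild-type cells and 2909 and 3091.5 in knockout cells. The sum was not lower in knockout cells because Cxcl13, a resident macrophage chemokine, stood at 944 and 1046.5 units in wild-type cells and at 1765 and 1749 in knockout cells. None of the 7 was at 0, and Timd4 was not listed. Gata6, which encodes a factor that resident macrophages of this cavity need, stood at 700.0, 628, 408 and 388 units in the order wild type mock, wild type with IL-10, knockout mock and knockout with IL-10. The part of these cells in the Mgll difference was not tested, and in bulk RNA fewer cells of a type and less RNA per cell cannot be told apart.

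The promoters of the 3 members whose IL-10 or genotype ratio passed 1.5-fold (Sphk1, Ptgs1 and Mgll) are shown as a description. IL-10 acts through the transcription factor STAT3, but what the promoters contribute to these ratios was not tested. The sequences are the 250 bases before a transcription start in RefSeq on GRCm38.p6 (a later build than the mm9 of the expression table), 5′ to 3′ (all 3 genes lie on the plus strand), with matches to a searched motif in capitals. Sphk1 has 5 starts in RefSeq, of which the outermost and the next are shown, and Mgll has 2, of which the outermost is shown.
Sphk1, outermost start, chr11:116530850-116531099: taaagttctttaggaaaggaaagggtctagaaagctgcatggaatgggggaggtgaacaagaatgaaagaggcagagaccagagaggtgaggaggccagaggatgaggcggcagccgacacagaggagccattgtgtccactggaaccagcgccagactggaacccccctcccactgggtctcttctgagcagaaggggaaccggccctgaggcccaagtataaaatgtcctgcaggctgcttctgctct
Sphk1, next start, chr11:116531587-116531836: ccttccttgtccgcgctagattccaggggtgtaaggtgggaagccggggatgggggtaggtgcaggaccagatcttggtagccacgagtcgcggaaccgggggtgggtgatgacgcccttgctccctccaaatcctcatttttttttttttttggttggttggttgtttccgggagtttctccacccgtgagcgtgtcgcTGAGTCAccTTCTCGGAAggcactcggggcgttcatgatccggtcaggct
Ptgs1, chr2:36230176-36230425: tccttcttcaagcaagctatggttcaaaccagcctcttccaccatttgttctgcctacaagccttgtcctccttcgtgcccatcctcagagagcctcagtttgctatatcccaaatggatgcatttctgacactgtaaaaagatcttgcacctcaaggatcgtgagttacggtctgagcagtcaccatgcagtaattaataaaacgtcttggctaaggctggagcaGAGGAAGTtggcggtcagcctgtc
Mgll, outermost start, chr6:88724162-88724411: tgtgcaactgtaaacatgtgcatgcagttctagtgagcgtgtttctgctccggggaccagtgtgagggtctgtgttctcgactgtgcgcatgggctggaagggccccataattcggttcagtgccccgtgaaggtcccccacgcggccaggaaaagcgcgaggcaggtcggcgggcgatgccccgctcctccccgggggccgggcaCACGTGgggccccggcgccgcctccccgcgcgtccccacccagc

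In the second Sphk1 window the capitals mark TGAGTCA, a match to the AP-1 motif TGANTCA whose first base lies 50 bases before the start, and TTCTCGGAA, a match to the STAT motif TTCNNNGAA that begins 41 bases before it. The capitals in the Ptgs1 window mark GAGGAAGT, the PU.1 motif, 24 bases before the start, and those in the Mgll window mark CACGTG, the E-box, 44 bases before it. The E-box also occurred in 2 overlapping windows of Sphk1 that are not shown, 95 and 102 bases before their starts, and so in 3 of 13 windows in all, and the second Mgll window held none of the motifs. Motifs were searched on both strands, also the interferon-stimulated response element and TGACGTCA (CRE), which had no match in the 13 windows of the 8 members that RefSeq's table holds. The STAT motif occurred in 7.02% of all 32851 promoter windows of this length, AP-1 in 6.75%, the E-box in 6.02%, PU.1 in 2.44%, the interferon element in 2.98% and CRE in 1.55%. Both STAT matches among the 13 windows are 1 site in overlapping windows of Sphk1, a gene with more windows than the others. The Ptgs1 window and the Mgll windows held no STAT match. The first Sphk1 window held none of the motifs. A match describes letters and is no evidence of binding. Alox5ap and Alox15 had no entry.

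Of the other prostanoid members, Ptgs2, which encodes the inducible cyclooxygenase, was listed at 83 units in mock-treated wild-type cells, 95 in wild-type cells with IL-10, 120 in mock-treated knockout cells and 113 in knockout cells with IL-10. Both knockout values were the higher ones. The log2 ratio of knockout to wild type was 0.42 under mock and 0.20 with IL-10, and IL-10 against mock gave 0.15 in wild-type cells and -0.07 in knockout cells, all under 1.5-fold. Ptges, the microsomal synthase that makes prostaglandin E2, showed the other order, with 275.5 and 265 units in wild-type cells (mock, then IL-10) and 202.5 and 207 in knockout cells. Its genotype ratios were -0.40 and -0.32, and its IL-10 ratios were -0.05 in wild-type cells and 0.03 in knockout cells.

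In the leukotriene branch the mock-treated knockout had the highest signal of Alox5ap, Ltc4s and Lta4h, although no member of the branch passed 1.5-fold in any comparison. Alox5ap encodes the protein that presents arachidonic acid to the lipoxygenase of this branch. It was listed at 3729 units in mock-treated wild-type cells, 4018 in wild-type cells with IL-10, 5507.5 in mock-treated knockout cells and 5057 in knockout cells with IL-10, so that both knockout values lay above both wild-type values. Its genotype ratio was 0.56 under mock, just inside the limit (rank 177 of 11400), and 0.33 with IL-10. IL-10 against mock gave 0.11 in wild-type cells and -0.12 in knockout cells. The listed row of Alox5ap spans only 125 bases, 0.534% of the gene's span in GENCODE M21.

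Ltc4s, the synthase that joins glutathione to leukotriene A4 to give cysteinyl leukotrienes, stood at 280 and 278.5 units in wild-type cells (mock, then IL-10) and at 383 and 324 in knockout cells. The knockout was again the higher, by 0.42 under mock and 0.20 with IL-10. Lta4h, the hydrolase that makes leukotriene B4, varied least of the members, with 2224.5, 2142.5, 2540.5 and 2136 units in the order wild type mock, wild type with IL-10, knockout mock and knockout with IL-10. Its 4 pairwise ratios ran from -0.25 to 0.19.

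Transcript length moved with these genotype differences. Across the 11222 genes with a length in GENCODE M21, the mock ratio of knockout to wild type was lower for longer transcripts, with a Spearman's rho of -0.53 across genes that share the same 2 columns, and the longest transcripts of Ltc4s and Alox5ap have 716 and 1251 bases. With the running median over length subtracted, the mock ratio of Ltc4s was 0.21 in place of 0.42 and that of Alox5ap 0.38 in place of 0.56. With IL-10, where rho was -0.40, the genotype ratio of Ltc4s was 0.07 in place of 0.20 and that of Alox5ap 0.22 in place of 0.33. The mock ratio of Mgll was -1.15 in place of -1.16. Mast cells also make cysteinyl leukotrienes, and 7 of the 9 mast cell markers chosen were listed, with a summed signal of 361 and 398 units in wild-type cells (mock, then IL-10) and 500.0 and 571 in knockout cells. All 4 kept were above 0 in both genotype comparisons, none listed was at 0, and Fcer1a and Ms4a2 were not listed. Of those below the filter, Tpsab1 was higher in knockout cells under both treatments. Hdc was lower, at 31 and 37.5 units in wild-type cells and 19 and 17 in knockout cells. Mcpt4 was lower under mock (26 against 18 units) and higher with IL-10 (20 against 33.5). The part of mast cells in the signal of Ltc4s and Alox5ap was not tested.

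The lipoxygenases themselves had low signal. Alox5, the lipoxygenase that starts leukotriene synthesis, was listed at 28 units in mock-treated wild-type cells, 40 in wild-type cells with IL-10, 28 in mock-treated knockout cells and 44.5 in knockout cells with IL-10. Alox15, which in mice oxidizes arachidonic acid at other carbons and marks resident and alternatively activated macrophages, was listed at 47.5, 63, 52.5 and 69.5 units in the same order. Both genes were higher with IL-10 in both genotypes and nearly level between genotypes. Their IL-10 log2 ratios were 0.29 in wild-type cells and 0.38 in knockout cells for Alox5, and 0.27 and 0.28 for Alox15, all under 1.5-fold. Without the pseudocount, which weighs on such low values, the plain ratios of Alox5 were 1.43 and 1.59. The Alox5 row covers 4.93% of the gene's span and that of Alox15 13.9%. Siglec5 and Ccr3 were the 2 eosinophil markers listed, and only Siglec5 was kept by the filter. Siglec5 stood at 353.5 and 471.5 units in wild-type cells (mock, then IL-10) and 393 and 477 in knockout cells, higher with IL-10 in both genotypes. Ccr3, with a mean below the filter, was listed at 9, 17, 31.5 and 43 units in the same order. The defining markers Epx and Prg2 were not listed, and a part of eosinophils in the signal of Alox15 was not tested.

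**Figure D2:**
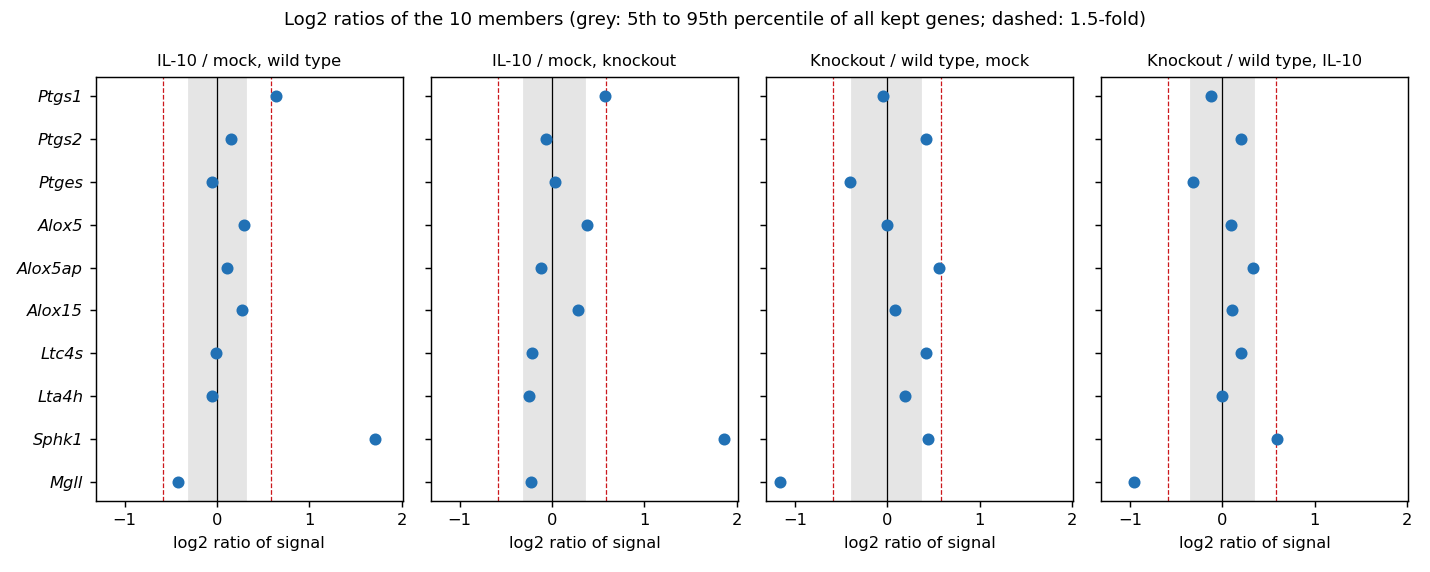
Log2 ratio of signal (horizontal axis) of each member in the 4 pairwise comparisons, 1 point per gene, with the 5th to 95th percentile of all 11400 kept genes in grey and the limit of 1.5-fold dashed. Sphk1 lies at 1.71 and 1.86 in the IL-10 panels and Mgll at -1.16 and -0.96 in the genotype panels. In the mock genotype panel the grey band runs from -0.38 to 0.37. Ptges (-0.4), Ptgs2 (0.42), Ltc4s (0.42), Sphk1 (0.44) and Alox5ap (0.56) also lie outside it there. In the IL-10 panels Ptgs1 (0.64 and 0.57), Mgll in wild-type cells (-0.42) and Alox5 in knockout cells (0.38) lie outside the band. So does Sphk1 (0.59) in the genotype panel with IL-10.

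Counted over the list, 2 of 10 members (Sphk1 and Ptgs1) were at least 1.5-fold higher with IL-10 in wild-type cells, where 1.54% of all kept genes were, and 1 of 10 (Sphk1) in knockout cells, against 2.32%. Sphk1 was the member at least 2-fold higher, in both genotypes, where the backgrounds were 0.465% and 0.877%. No member was 1.5-fold lower with IL-10 in either genotype, against 0.412% and 0.807% of all kept genes. Under mock, 1 of 10 (Mgll) was at least 1.5-fold lower in knockout cells, against 1.4%, and the same gene was the 1 of 10 past 2-fold, against 0.105%. No member was 1.5-fold higher there, against 1.43%. With IL-10, Mgll was the 1 of 10 at least 1.5-fold lower in knockout cells, against 0.991%, and Sphk1 the 1 of 10 at least 1.5-fold higher, against 1.8%. In no member did the IL-10 ratio differ between genotypes by 1.5-fold, where 0.5% of kept genes did upward and 0.263% downward. Because the members were chosen with earlier results of these data known, shares above these backgrounds are not read as a result about the list.

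The median log2 ratio of the 10 members was 0.13 for IL-10 in wild-type cells, -0.02 for IL-10 in knockout cells, 0.14 for genotype under mock and 0.10 for genotype with IL-10. Over all kept genes these medians were 0.00, -0.01, 0.02 and 0.01. With IL-10, 6 of 10 members were above 0 in wild-type cells and 5 in knockout cells, where 49.6% and 45.2% of all kept genes were. In the genotype comparisons 6 of 10 were above 0 both under mock and with IL-10, against 53.5% and 51.8%. These shares lie near those of all genes.

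**Figure D3:**
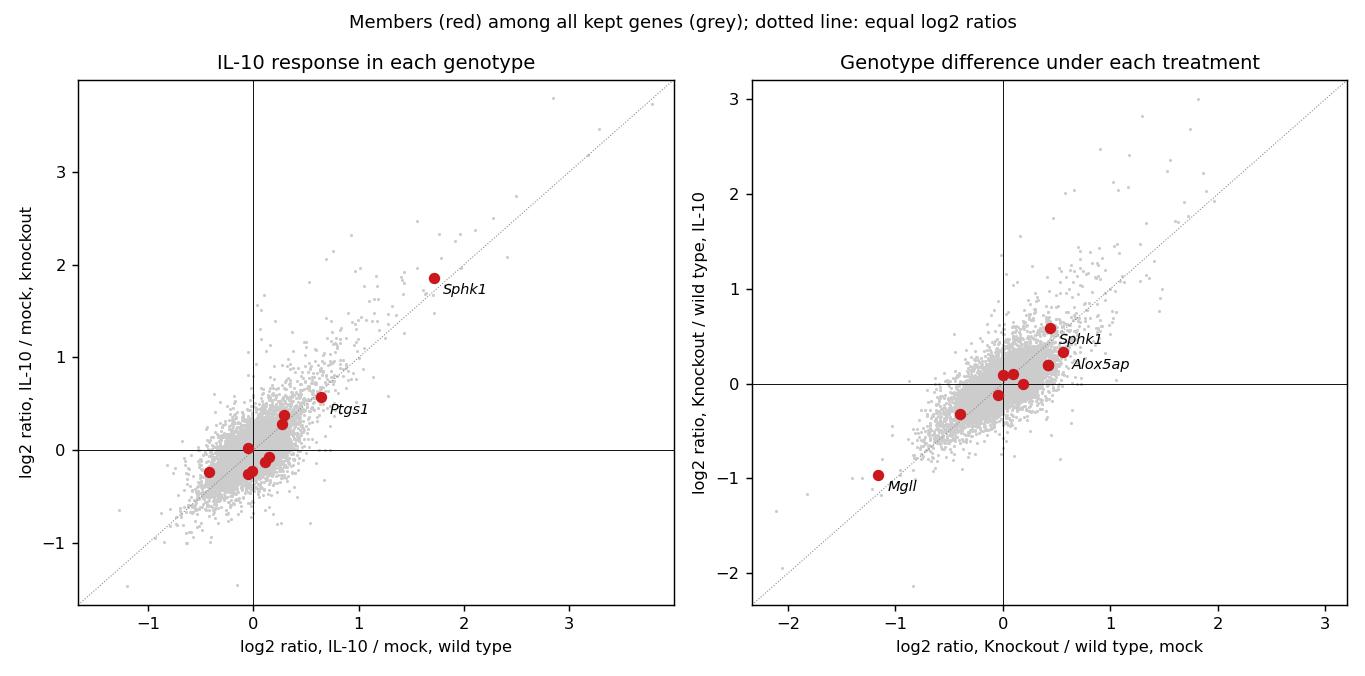
Log2 ratios of all 11400 kept genes (grey) and the members (red): the IL-10 response in knockout cells against that in wild-type cells (left) and the genotype ratio with IL-10 against that under mock (right), with equal ratios on the dotted line. Sphk1 and Ptgs1 lie near the dotted line on the left, at 1.71 and 1.86 and at 0.64 and 0.57, and Mgll lies near it on the right, at -1.16 and -0.96.

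The IL-10 comparisons of the 2 genotypes share no column. The members' differences between the genotypes' IL-10 ratios ran from -0.23 for Alox5ap to 0.19 for Mgll, with 5 above 0 and 5 below. Over all kept genes the 5th and 95th percentiles of this difference were -0.27 and 0.28.

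Among 110 other genes of these pathways on the lists used, 81 were listed and 76 kept. With IL-10, 3 of 76 were at least 1.5-fold higher in each genotype, the same genes in both (Pla2g4a, Pla2g15 and Ltb4r1). Of these, Pla2g4a passed only narrowly in wild-type cells, and Ltb4r1 had a low signal. In wild-type cells 0 and in knockout cells 1 (Cnr2) were 1.5-fold lower. In the genotype comparison under mock, 2 of 76 were at least 1.5-fold higher (Ltb4r1 and Pla2g2e) and 1 lower (S1pr3), and with IL-10 1 was higher (Ltb4r1) and none lower. The backgrounds given above, in the same order, were 1.54% and 2.32% of all kept genes higher with IL-10, 0.412% and 0.807% lower, 1.43% higher and 1.4% lower for genotype under mock, and 1.8% and 0.991% for genotype with IL-10, and counts this small are not read as a result about the pathways. The medians of the 76 genes were -0.01 and -0.03 for IL-10 in wild-type cells and knockout and 0.00 in both genotype comparisons.

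On the list of arachidonate release and lysophospholipid genes, which also holds Lpcat1, Acsl4 and Anxa1, 13 were kept. Of these, 2 of 13 were at least 1.5-fold higher with IL-10 in each genotype, where 1.54% and 2.32% of all kept genes were. Pla2g4a, the cytosolic phospholipase that releases arachidonic acid, was listed at 312 units in mock-treated wild-type cells, 482.5 in wild-type cells with IL-10, 299 in mock-treated knockout cells and 608 in knockout cells with IL-10. Like Ptgs1, it was higher in both IL-10 groups, with log2 ratios of 0.59 in wild-type cells and 0.96 in knockout cells. The first of these lies just past the limit of 1.5-fold (0.585 on the log2 scale), so the wild-type count rests on a narrow margin. Pla2g15, a lysosomal phospholipase, stood at 4322 and 7243.5 units in wild-type cells and at 4344 and 7853 in knockout cells, ratios of 0.74 and 0.85. Pla2g2e, a secreted phospholipase, was low, at 42.5, 66, 107.5 and 89 units in the order wild type mock, wild type with IL-10, knockout mock and knockout with IL-10. Its genotype ratio was 0.96 under mock and 0.32 with IL-10.

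Downstream of the cyclooxygenases, 0 of 9 kept prostanoid synthases and breakdown enzymes and 0 of 6 kept prostanoid receptors and transporters passed 1.5-fold in any of the 4 comparisons. The most distant were Ptgr1, which inactivates leukotriene B4 and prostaglandins, at 1227 units in mock-treated wild-type cells and 1834 in mock-treated knockout cells (0.57), and Ptgis, the prostacyclin synthase, at 1072.5 and 810.5 (-0.39 under mock, -0.48 with IL-10). Slco2a1, a prostaglandin transporter, had a genotype ratio of -0.50 with IL-10, and Ptger4, a receptor of prostaglandin E2, an IL-10 ratio of 0.47 in knockout cells. The share of all kept genes past 1.5-fold in any of the 4 comparisons was not computed. In single comparisons between 0.412% and 2.32% of all kept genes passed in either direction. Small counts on these lists and those below are therefore not read as results about the branches.

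The leukotriene B4 receptor gene Ltb4r1 was higher in every pairwise comparison. It was listed at 36.5 units in mock-treated wild-type cells, 74 in wild-type cells with IL-10, 82.5 in mock-treated knockout cells and 199 in knockout cells with IL-10. The log2 ratios were 0.67 and 1.05 for IL-10 in wild-type cells and knockout, and 0.79 and 1.16 for genotype under mock and with IL-10. The difference between the genotypes' IL-10 ratios was 0.38. Cysltr1, a receptor of cysteinyl leukotrienes, had the same order of groups, at 139, 199, 212.5 and 268 units, with ratios between 0.30 and 0.53. Of 8 kept genes on the list of leukotriene conjugation and other lipoxygenases none passed 1.5-fold. No lipoxygenase was among them, since Alox12, Alox12b, Alox12e, Alox8 and Aloxe3 were not listed. The most distant were Cyp4f18, which inactivates leukotriene B4, at 0.54 under mock and Dpep2, which trims leukotriene D4, at 0.44 with IL-10, both knockout against wild type. Monocytes also express Ltb4r1. The summed signal of their markers, given above beside Sphk1, was likewise lowest in mock-treated wild-type cells and highest in knockout cells with IL-10. Of 8 neutrophil markers 4 were listed and 2 kept, and Ly6g was not listed. Their sum was 106 and 107.5 units in wild-type cells (mock, then IL-10) and 199 and 224.5 in knockout cells. Retnlg stood at 29.5, 26.5, 109.5 and 121.5 units in the same order, and S100a8 at 53, 52, 56.5 and 64. The part of either cell type in the Ltb4r1 signal was not tested.

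Of 21 kept genes for sphingolipid enzymes and sphingosine 1-phosphate receptors 20 stayed inside 1.5-fold in all 4 comparisons, as most kept genes did. Sphk2, the second sphingosine kinase gene, was listed at 2948.5 units in mock-treated wild-type cells, 3055.5 in wild-type cells with IL-10, 2915 in mock-treated knockout cells and 3007 in knockout cells with IL-10, and its ratios ran from -0.02 to 0.05. The exception was the receptor gene S1pr3, at 145 units in mock-treated wild-type cells and 85 in mock-treated knockout cells (-0.62), with -0.28 with IL-10. Spns2, a transporter that exports sphingosine 1-phosphate, had a genotype ratio of -0.56 under mock. Around Mgll, 1 of 10 kept monoacylglycerol and endocannabinoid genes passed the limit. This was the cannabinoid receptor gene Cnr2, at 1351 and 1025.5 units in wild-type cells and 1321 and 854.5 in knockout cells, with IL-10 ratios of -0.39 and -0.61. Daglb, a lipase that makes the monoacylglycerol that Mgll breaks down, had IL-10 ratios of -0.39 and -0.48. Both genes, like Mgll, were lower with IL-10 in both genotypes, but their genotype ratios under mock were -0.03 and -0.11 where that of Mgll was -1.16. None of 6 platelet-activating factor genes passed the limit, and the most distant were Pla2g7 at 0.37 under mock, knockout against wild type, and the receptor gene Ptafr at -0.26 for IL-10 in knockout cells.

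**Figure D4:**
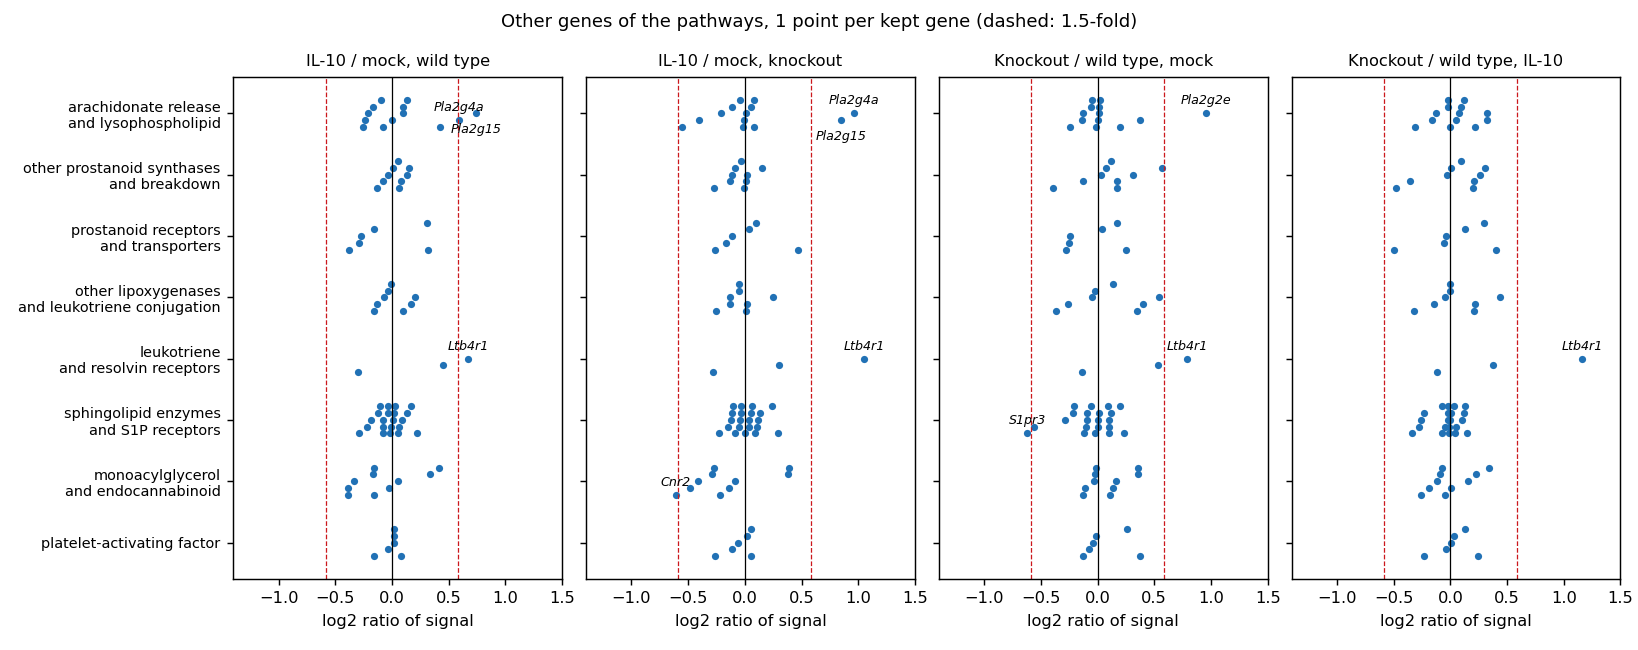
Log2 ratios of signal (horizontal axis) of the 76 kept genes on the 8 pathway lists (rows) in the 4 pairwise comparisons, 1 point per gene, with 1.5-fold dashed and the genes past it named. Ltb4r1, a gene of low signal, is past the limit in all 4 panels and reaches 1.16. Pla2g4a and Pla2g15 are past the limit in both IL-10 panels, Pla2g4a only narrowly in wild-type cells (0.59). S1pr3 is past it at -0.62 in the mock panel, and all platelet-activating factor points lie inside it.

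For the 3 members whose highest and lowest groups differed by at least 1.5-fold after the pseudocount, the genes with the most similar pattern were sought among 9438 genes of at least 134 units, by the distance between centred log2 profiles over the 4 groups. With 4 points a profile fixes little, and the genes are named as a description. Nearest to Sphk1 were Kcnk13, a potassium channel gene (566, 1708.5, 694 and 2782 units in the order wild type mock, wild type with IL-10, knockout mock and knockout with IL-10, distance 0.137), Olfm1 (0.146), Cd38 (0.195) and Il13ra1 (0.212). Nearest to Ptgs1 were the transcription factor genes Pou2f2 (229, 367, 220.5 and 346 units, distance 0.031) and Rbpj (0.085), with Clic4 (0.079) and Ap1b1 (0.096). Nearest to Mgll were Lyz2 (0.213), whose signal reaches the table's highest value of 362618, Adam19 (533, 376, 292 and 207.5 units, distance 0.307), Bex1 (0.321) and Fndc1 (0.337).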

How the data were processed

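RNA of 8 samples, 2 in each of 4 groups, was sequenced by the submitters. RSEM, Bowtie and mm9, with no versions, come from the submitters' processing notes. The sources used here do not state the normalization or the gene annotation. The authors deposited a normalized expression signal for 11996 genes, 1 column per group. It is deposited under the name CPM, but every column sums to 26705598 and all values are multiples of 0.5. Values also recur between columns, such as 34645.5 units for Anxa1 in knockout cells with IL-10 and for Il7r in wild-type cells with IL-10. Whether a value is the mean of 2 samples is not stated. All columns also share a highest value of 362618, so differences in depth are no longer visible. The columns were matched to groups by name.

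From this signal, log2 ratios were computed (Python 3.11.15, pandas 2.3.3) with a pseudocount of 1 ppm of the column total, and 11400 genes with a mean of at least that level were kept. IL-10 was set against mock within a genotype, the genotypes were compared within a treatment, and the IL-10 ratio of wild-type cells was subtracted from that of knockout cells. The design assumed 1 value per group and no test. The code was tested on simulated data. Of names on several rows, the row with the highest mean was used.

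Named genes were all members and, per pathway list, those past 1.5-fold in any pairwise comparison, or the 2 most distant where fewer than 2 were, plus the 4 genes most like a member. Sphk2, Gata6 and the markers were named outside that rule. Genes below the filter were chosen as those on a list. Older symbols were matched by gene identifier. Members and lists were chosen with earlier results of these data known. Alternatives were other pseudocounts and filters, centring, subtraction of a running median over transcript length (501 genes, GENCODE M21), and summing repeated names.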

Additional observations from a re-analysis of the deposited data

How the results depend on the processing

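The count of members past 1.5-fold kept its value under other pseudocounts (0.25 and 4 ppm), a filter at 5 ppm or none, centring, subtraction of the length trend and summed repeated names, except in knockout against wild type with IL-10. There the count was 2 (Sphk1 and Mgll), and it was 1 with a pseudocount of 4 ppm and 1 after centring, where Sphk1 stood at 0.56 and 0.58, just inside the limit. No called member changed sign under these alternatives. They did not include leaving out the pseudocount. As plain ratios of IL-10 to mock in knockout cells, Ptgs1 stood at 1.5 (50.1% higher) and Alox5 at 1.59. Both would pass 1.5-fold there, so the count in knockout cells depends on the pseudocount. The filter at 5 ppm left out Alox5, Alox15 and Ptgs2. No paired analysis was possible because the table has 1 value per group and no column carries a replicate number, and leaving out a replicate was not run for the same reason. Depth per library is unknown, and with 1 value per group the ratios have no error.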

Other observations

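Among the receptor and breakdown genes, 5 on the pathway lists lay below the filter of 26.7 units and enter no count. Fpr2, a formyl peptide receptor reported to bind lipoxin, was listed at 9.5 units in mock-treated wild-type cells, 14.5 in wild-type cells with IL-10, 14 in mock-treated knockout cells and 35.5 in knockout cells with IL-10. Fpr1, its neighbour in the family, stood at 10, 15.5, 17 and 27.5 units in the same order. Both were highest in knockout cells with IL-10, the group in which Ltb4r1 and Sphk1 were also highest. Cysltr2 stood at 16.5, 15, 25 and 24 units, and the prostaglandin-degrading Hpgd at 18, 21, 23 and 15. Ptger3 was listed at 15 or 15.5 units in every group. At such signals a step of a few units makes a large ratio, and no ratio is given.

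Opposite signs of the IL-10 ratio in the genotypes were seen in 3 members. Ptgs2 had 0.15 in wild-type cells and -0.07 in knockout cells, Alox5ap 0.11 and -0.12, and Ptges -0.05 and 0.03. With the length trend subtracted, the value of Alox5ap in wild-type cells was 0.02 and that of Ptgs2 in knockout cells -0.03, so these signs rest on small differences. None of these is past 1.5-fold, and the difference was not tested. Among the other genes of the pathways, Pla2g2e was the 1 of 76 whose IL-10 ratios differed between genotypes by over 1.5-fold, with 0.42 in wild-type cells and -0.21 in knockout cells, a difference of -0.64.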
